A study of Mus musculus with 8 samples.

Results

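The complement and coagulation genes described here are 52 named genes of both plasma cascades, taken as a fixed list by symbol and not by any measured value, and all 52 were among the 55385 genes of the liver RNA-seq table. Of these, 49 were tested because 4 or more of the 8 livers reached 0.5 FPKM, whereas *Cfd*, *F13a1* and *Plat* were not. FPKM scales a count to the length of the gene and to the total of the liver. The livers came from 4 *Usp39*-HKO mice, in which floxed *Usp39* alleles were combined with *Alb-Cre*, a Cre recombinase driven by the albumin promoter, and from 4 control littermates whose genotype is labelled WT. All 8 mice were male, 5 weeks old and fasted for 16 h, and each gave 1 library. *Usp39* encodes a component of the spliceosome, and the cross targets cells that express albumin, so that most other cells of the liver keep it.

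Most circulating complement and clotting proteins are made by hepatocytes. In complement, C1q bound to antibody or mannose-binding lectins bound to sugars activate serine proteases, which build enzymes that cleave C3, and later products form a pore of C5b to C9 in the target membrane. In coagulation, tissue factor with factor VII, or the contact proteases, activate a chain of vitamin K-dependent proteases that ends in thrombin, which turns fibrinogen into fibrin, and plasmin later dissolves the clot. C1q chains, properdin and the anaphylatoxin receptors are made chiefly by macrophages and other myeloid cells, and thrombomodulin by endothelium.

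*Usp39*-HKO livers had lower RNA levels for much of the hepatocyte-made part of both cascades. At an adjusted p under 0.05 (edgeR's quasi-likelihood test on the counts, Benjamini-Hochberg adjustment over the 14340 genes tested), 26 of the 49 members tested were lower, 53.1%, where 11.6% of all genes tested were lower. Another 7 members were higher, 14.3% against 10.9% of all genes tested, and 16 were not called. The median log2 fold change of the 49 members, *Usp39*-HKO over control, was −0.56 against −0.0015 over all genes tested, and 37 of the 49 values were negative. Members lower in *Usp39*-HKO livers were led by *Klkb1*, *C8b*, *F7* and *C4b*, and the 7 higher ones were the 3 C1q chains, both anaphylatoxin receptors, *Thbd* and *Plaur*. Of these, *Plaur* passed the filter only through its *Usp39*-HKO values. Many members are among the most abundant transcripts of the liver, and abundant genes were lower more often than others: of the 478 genes with a mean FPKM of at least 100, a level chosen after the values were seen, 29.5% were lower, beside 16 of the 25 members at that level (64%). Fold changes are relative to the median gene, since the log2(FPKM + 1) of the median gene differed by 0.17 in favour of the *Usp39*-HKO group, which the scaling factors of the fit (TMM) take out; without them 20 members were lower and 10 higher, where 4.85% of all genes tested were lower and 24.6% higher. The calls lost without them were those of *C9*, *Fga*, *F13b*, *F2*, *F5* and *Serpind1* (adjusted p between 0.0552 and 0.115), and those gained were *Cfp*, *F3* and *Plau*, all higher.

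**Figure D1:**
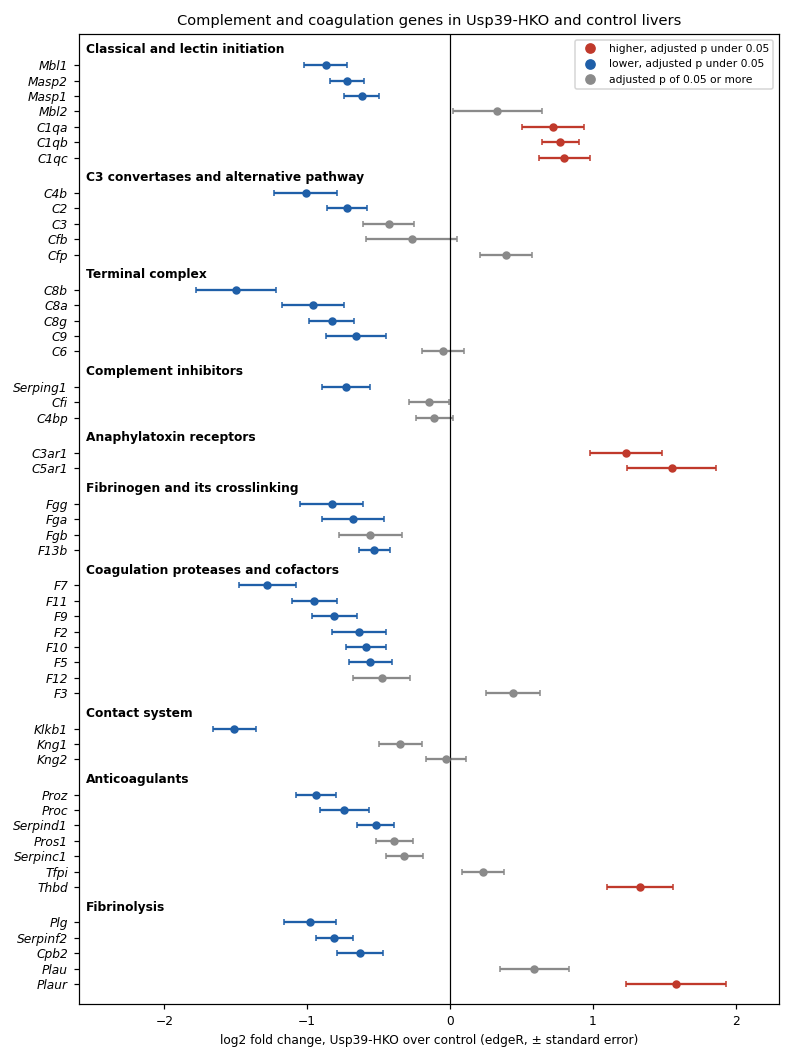
Log2 fold change (x axis, *Usp39*-HKO over control, edgeR, bars ± standard error) of the 49 members tested, grouped by role and ordered within each role, with members called lower in blue, called higher in red and not called in grey. The lowest points are *Klkb1* at −1.51 and *C8b* at −1.50, and the 7 red points are *C1qa*, *C1qb*, *C1qc*, *C3ar1*, *C5ar1*, *Thbd* and *Plaur*.

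Libraries held between 8589636 and 10418450 counts, and a floor of 3 counts was worth 0.288 CPM (counts per total of the library) in the deepest and 0.349 in the shallowest, for counting error only. *Usp39* itself, whose count also covers the exons left by the deletion, was at 9.35, 10.4, 8.76 and 9.78 FPKM in controls and at 8.37, 8.63, 8.70 and 8.07 in *Usp39*-HKO livers (log2 fold change −0.41, SE 0.11, adjusted p = 0.0212). The groups did not overlap, but the call was lost without TMM (−0.18, adjusted p = 0.247), without *Usp39*-HKO mouse 4 (adjusted p = 0.0615) and without control mouse 4 (adjusted p = 0.0547). In lists of cell type markers, 3 of 8 hepatocyte genes were lower (*Cps1*, *Cyp2e1* and *Apob*), whereas *Alb* had a log2 fold change of −0.14 (adjusted p = 0.626). Markers of macrophages were higher in 8 of 11 tested, of stellate cells in 7 of 8 and of cholangiocytes in 4 of 4, and erythroid markers were lower in 5 of 5. The 8 macrophage markers include *Ccr2* (0.354 to 0.582 FPKM in controls), which passed the filter only through its *Usp39*-HKO values. *Krt19*, among the 4 cholangiocyte markers, was under the minimum of 0.5 FPKM in control mouse 3 (0.439). Both counts carry that limit. Endothelial markers were lower in 2 of 9, and none of the neutrophil, platelet, lymphocyte or pancreas genes tested was called. Of the adipocyte list only *Cidec* was tested, and it was higher. The rest of that list was near 0: *Adipoq* and *Plin1* reached at most 0.169 and 0.0469 FPKM, and *Lep* and *Retn* had 0 counts in each liver. Control mouse 4 stood apart by its pancreas genes, whose FPKM summed to 543 there and to between 2.45 and 4.79 in the other livers; without it 20 members were lower and 6 higher, beside 7.13% and 7.11% of all genes tested.

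Several members are neighbours in the genome. On GRCm38, *Fgg*, *Fga* and *Fgb* lie within 42.1 kb of chromosome 3 (83007724 to 83049863), *C8b* and *C8a* within 110 kb of chromosome 4 (104766317 to 104876398), and *C1qb*, *C1qc* and *C1qa* within 18.7 kb of the same chromosome (136880129 to 136898803). *F7*, *F10* and *Proz* follow each other within 50 kb of chromosome 8 (13026034 to 13076026), and *F11* and *Klkb1* within 53.7 kb of it (45241174 to 45294859). Each of these clusters had all of its called members on 1 side: the genes of the *F7*, *F11*, C8 and fibrinogen clusters were lower, *Fgb* excepted as not called, and those of the C1q cluster were higher. Of *Cfb* and *C2*, within 41.9 kb of chromosome 17, only *C2* was called, and of *Kng2* and *Kng1*, within 96.2 kb of chromosome 16, neither was. Most called members were lower, and whether neighbours agreed more often than other members was not tested.

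The 250 bases before the RefSeq start (GRCm38.p6) are shown for *C8a* and *C8b*, neighbours whose falls differed in size (the windows of the other C8 chain, *C8g*, held no motif and are not shown), for a fibrinogen chain with 3 motifs, and for the neighbours *F11* and *Klkb1*. Windows are chr4:104876399-104876648 (minus strand) for *C8a*, chr4:104766067-104766316 (plus) for *C8b*, chr3:83049864-83050113 (minus) for *Fgb*, chr8:45262032-45262281 (minus) for *F11* and chr8:45294836-45295085 (minus) for *Klkb1*, whose annotated gene begins within its window. Capitals mark matches, on either strand, to short sequences known from sites of liver factors or from core promoters.
*C8a*: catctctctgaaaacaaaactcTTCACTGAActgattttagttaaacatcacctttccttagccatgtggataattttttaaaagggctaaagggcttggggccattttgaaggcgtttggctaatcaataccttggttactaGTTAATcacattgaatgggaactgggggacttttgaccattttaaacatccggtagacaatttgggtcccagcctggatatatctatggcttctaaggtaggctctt
*C8b*: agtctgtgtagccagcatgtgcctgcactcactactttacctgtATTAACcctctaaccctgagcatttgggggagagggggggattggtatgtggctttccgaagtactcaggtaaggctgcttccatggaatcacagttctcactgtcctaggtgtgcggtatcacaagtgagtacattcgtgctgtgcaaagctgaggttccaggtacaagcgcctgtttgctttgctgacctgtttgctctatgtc
*Fgb*: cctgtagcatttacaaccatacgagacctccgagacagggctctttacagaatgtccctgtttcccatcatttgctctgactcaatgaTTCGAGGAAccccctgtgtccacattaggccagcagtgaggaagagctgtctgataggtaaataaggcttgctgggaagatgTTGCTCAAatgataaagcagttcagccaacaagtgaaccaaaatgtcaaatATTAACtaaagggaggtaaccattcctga
*F11*: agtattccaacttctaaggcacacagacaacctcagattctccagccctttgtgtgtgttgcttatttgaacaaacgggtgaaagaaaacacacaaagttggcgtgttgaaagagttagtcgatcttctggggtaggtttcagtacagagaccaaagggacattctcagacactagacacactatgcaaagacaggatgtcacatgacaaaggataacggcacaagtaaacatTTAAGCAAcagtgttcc
*Klkb1*: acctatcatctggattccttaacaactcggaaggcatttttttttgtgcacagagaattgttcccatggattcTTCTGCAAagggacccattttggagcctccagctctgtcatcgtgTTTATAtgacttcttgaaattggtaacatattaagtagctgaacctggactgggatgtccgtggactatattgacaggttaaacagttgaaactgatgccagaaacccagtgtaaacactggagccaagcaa

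In *C8a* the capitals are the letters searched as a STAT site, TTCNNNGAA, 228 bases before the start and part of an HNF1 site, GTTAAT, 107 bases before it. *C8b* held these HNF1 letters at 206 bases, and *Fgb* held them at 29, a C/EBP site, TTGCNNAA, at 80 and a STAT site at 162 bases. *F11* had a C/EBP site at 17 bases, and *Klkb1* had 1 at 177 and a TATA box, TATAAA, at 132 bases; the capitals do not overlap each other. Of 42 promoters found for 39 members, 19% held the HNF1 letters (6.43% of all 32851 promoters), 21.4% the C/EBP site (9.56% of all), 14.3% the STAT site (7.02% of all) and 7.14% the TATA box (12.4% of all). The letters of an HNF4 site, CAAAGTCCA, were in 0.384% of all promoters and in none of the 42. A match is a match of letters only.

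Among the genes that start the classical and lectin pathways, the 3 C1q chains were higher, and 3 of the 4 lectin pathway genes, *Mbl1*, *Masp1* and *Masp2*, were lower. *C1qb*, a chain of the recognition molecule C1q, was at 67.9, 99.0, 70.2 and 79.9 FPKM in controls and at 160.3, 136, 157 and 186 in *Usp39*-HKO livers (log2 fold change 0.77, SE 0.13, adjusted p = 0.00291). *C1qc* was at 30.1, 54.3, 32.4 and 38.4 in controls and at 80.7, 64.1, 83.6 and 89.0 in *Usp39*-HKO livers (0.80, SE 0.18, adjusted p = 0.00878). For both, each *Usp39*-HKO liver was above each control. *C1qa* was at 49.6, 95.4, 51.4 and 62.2 FPKM in controls and at 149.9, 91.5, 134 and 121 in *Usp39*-HKO livers (0.72, SE 0.22, adjusted p = 0.037), with *Usp39*-HKO mouse 2 below control mouse 2. Its call was lost on leaving out any 1 of control mice 1, 3 and 4 or *Usp39*-HKO mice 1, 3 and 4 (adjusted p between 0.0548 and 0.109).

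*Mbl1*, a mannose-binding lectin, fell from 138, 143, 129 and 128 FPKM to 78.3, 95.8, 103 and 67.2 (log2 fold change −0.87, SE 0.15, adjusted p = 0.00295), with no overlap between the groups. The lectin-associated proteases fell as well, *Masp2* by 0.72 and *Masp1* by 0.62 on the log2 scale (adjusted p = 0.00254 and 0.00526), each below every control in all 4 *Usp39*-HKO livers. *Masp2* shares 54.9% of its exon length with *Tardbp* on the opposite strand, which was not called (0.17). The strand setting of the counting is not given, so the level of *Masp2* is uncertain. *Mbl2*, the other lectin, ranged from 95.8 to 182 FPKM in controls and from 99.4 to 282 in *Usp39*-HKO livers and was not called (0.33, SE 0.31, adjusted p = 0.487).

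*C3*, the protein on which all routes converge, was the most abundant member. It was at 1369.7, 1662, 1424 and 1440.5 FPKM in controls and at 1563, 1202, 1242 and 1081 in *Usp39*-HKO livers (log2 fold change −0.43, SE 0.18, adjusted p = 0.109). *Usp39*-HKO mouse 1 lay within the range of the controls and the other 3 lay below it, and without that mouse *C3* was called lower (−0.57, adjusted p = 0.0213). *C4b* and *C2*, whose products form the C3-cleaving enzyme of the classical and lectin routes, were both lower. *C4b* fell from 307, 253, 278 and 361 FPKM to 239, 176, 146 and 132 (−1.01, SE 0.22, adjusted p = 0.00784), and *C2* from 8.30, 10.2, 9.83 and 11.6 to 8.16, 7.42, 6.63 and 6.21 (−0.72, SE 0.14, adjusted p = 0.00583). Neither overlapped, although the highest *Usp39*-HKO liver of each, mouse 1, was close to the lowest control.

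The alternative pathway genes were not called. *Cfb* encodes the protease of the alternative C3-cleaving enzyme and was counted at a low level. It was at 1.08, 1.86, 1.40 and 1.22 FPKM in controls and at 1.57, 0.903, 2.04 and 0.859 in *Usp39*-HKO livers (log2 fold change −0.27, SE 0.32, adjusted p = 0.586). *Cfp*, properdin, which stabilizes that enzyme, had means of 32.6 ± 7.01 and 50.5 ± 10.9 FPKM (SD, n = 4; 0.39, adjusted p = 0.14), and was called higher on leaving out control mouse 2 (0.56, adjusted p = 0.0363) or *Usp39*-HKO mouse 2 (0.53, adjusted p = 0.0309). *Cfd*, factor D, had 1, 0, 0 and 3 counts in controls and 0 in each *Usp39*-HKO liver. *Cfb* and *C2* share 79.5% and 42.8% of their exon length with the read-through gene *Gm20547*, which had 0 counts in each liver, and *C4b* shares 16.9% of its transcript with *C4a*. How reads on shared exons or sequence were counted is not given in the sources used here, so the levels of these 3 genes are uncertain. If reads on exons shared with *Gm20547* were dropped, *Cfb* and *C2* are counted too low.

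Of the complement groups, the terminal complex had the lowest median log2 fold change, −0.83 over 5 members, of which 4 were called lower. *C8b*, which joins C8 to the growing pore, was at 124, 148, 138 and 128 FPKM in controls and at 50.5, 62.2, 81.9 and 26.7 in *Usp39*-HKO livers (log2 fold change −1.50, SE 0.28, adjusted p = 0.00405). *C8a*, its pore-inserting partner, was at 171, 145, 144 and 147 in controls and at 91.2, 94.0, 124 and 54.9 in *Usp39*-HKO livers (−0.96, SE 0.22, adjusted p = 0.0114). *C8g*, the third chain, a lipocalin, was at 158, 173, 154 and 149 in controls and at 109, 118, 113 and 74.8 in *Usp39*-HKO livers (−0.83, SE 0.16, adjusted p = 0.00514). None of the 3 chains overlapped between the groups, and *Usp39*-HKO mouse 4 was the lowest for each. *C9*, which polymerizes into the pore, was at 134, 128, 129.9 and 129 in controls against 77.3, 121, 125 and 63.3, thus close to the controls in *Usp39*-HKO mice 2 and 3. Its call (−0.66, adjusted p = 0.0422) was lost without any 1 of the 4 controls or *Usp39*-HKO mice 1 and 4 (adjusted p between 0.0554 and 0.0921). *C6*, an earlier component, was not called (−0.05, adjusted p = 0.851).

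The ratio of 2 chains within a liver does not depend on how libraries are scaled. The log2 ratio of *C8a* over *C8b* FPKM was 0.46, −0.02, 0.06 and 0.20 in controls and 0.85, 0.60, 0.60 and 1.04 in *Usp39*-HKO livers. That of *C8b* over *C8g* was −0.35, −0.22, −0.16 and −0.21 in controls and −1.11, −0.92, −0.47 and −1.48 in *Usp39*-HKO livers. *C8b* was thus low beside both partners in each *Usp39*-HKO liver, with mean differences of 0.60 and −0.76. Both had an exact permutation p = 0.0286 (two-sided), the smallest that 70 assignments of 8 livers allow, and 0.129 after Benjamini-Hochberg adjustment over the 9 ratios compared, which no ratio of the 9 passed at 0.05. Ratios between the C1q chains differed by between −0.09 and −0.04 (exact permutation p between 0.429 and 0.771), and *C8a* over *C8g* differed by −0.16 (exact permutation p = 0.314).

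**Figure D2:**
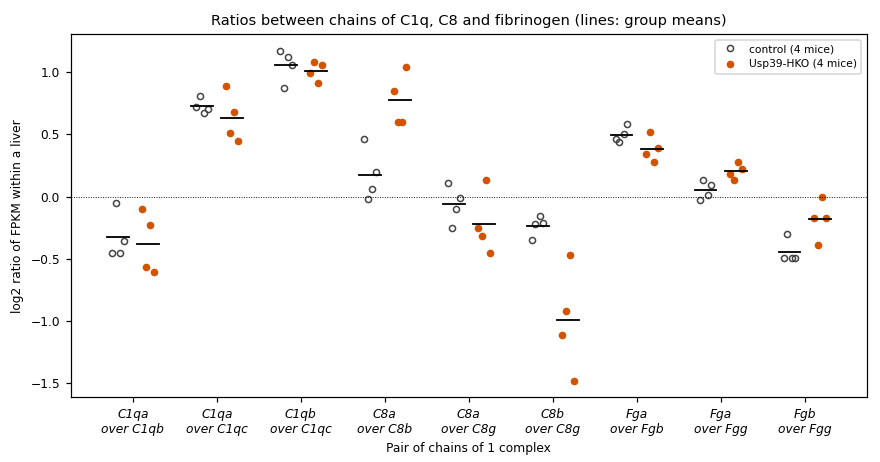
Log2 ratio of FPKM between 2 chains of 1 complex within each liver (y axis) for the 9 pairs of C1q, C8 and fibrinogen chains (x axis), with open circles for the 4 controls, filled circles for the 4 *Usp39*-HKO livers and lines for group means. The groups separate for the 2 pairs that hold *C8b* and overlap for the other 7.

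Among the inhibitors, *Serping1*, which encodes the C1 inhibitor of the complement, contact and fibrinolytic proteases, fell from 399.7, 322, 447 and 479 FPKM to 319, 305, 303 and 233 (log2 fold change −0.73, SE 0.17, adjusted p = 0.0118). *Usp39*-HKO mouse 1 was just below control mouse 2. *Cfi*, the protease that degrades C3b, had means of 293 ± 30.9 and 308 ± 30.6 FPKM (SD, n = 4; −0.15, adjusted p = 0.469), and *C4bp*, the C4b-binding cofactor, 79.0 ± 5.06 and 85.5 ± 8.86 (−0.11, adjusted p = 0.559). Both means were higher in *Usp39*-HKO livers while the fitted change was negative, a sign that turned without TMM scaling (0.08 and 0.12).

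The receptors of the anaphylatoxins C3a and C5a were higher. *C3ar1* was at 1.75, 1.57, 1.62 and 1.29 FPKM in controls and at 2.51, 5.38, 3.19 and 6.40 in *Usp39*-HKO livers (log2 fold change 1.23, SE 0.25, adjusted p = 0.00573). *C5ar1* was at 1.40, 1.26, 0.589 and 0.822 in controls and at 1.96, 4.16, 3.14 and 5.01 in *Usp39*-HKO livers (1.55, SE 0.31, adjusted p = 0.00556). No *Usp39*-HKO liver reached down to a control, and mouse 1 was the lowest of its group for both.

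**Figure D3:**
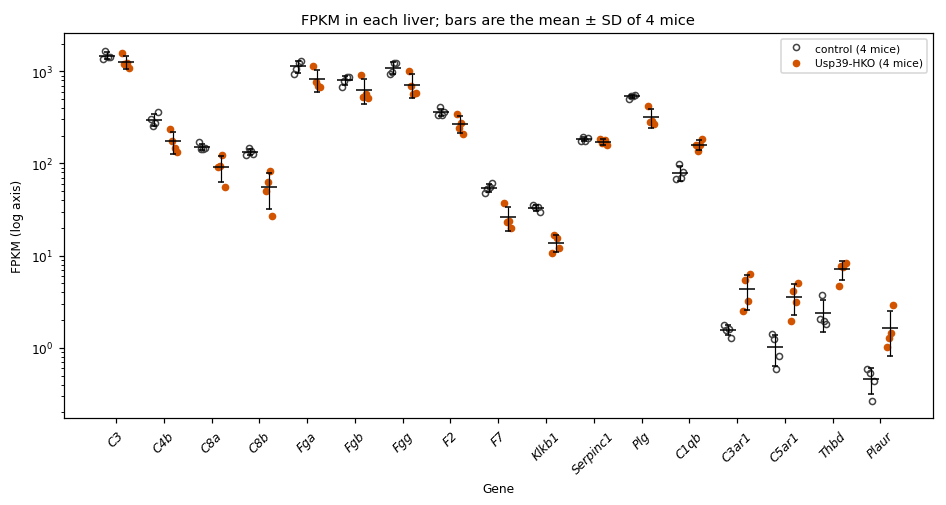
FPKM (y axis, log scale) of 17 members (x axis) in each of the 4 control (open circles) and 4 *Usp39*-HKO livers (filled circles), with bars for the mean ± SD. *C4b*, *C8a*, *C8b*, *F7*, *Klkb1* and *Plg* separate downward, and *C1qb*, *C3ar1*, *C5ar1*, *Thbd* and *Plaur* separate upward. For *Fga*, *Fgg*, *C3* and *F2* 1 *Usp39*-HKO liver lies within the range of the controls, and for *Serpinc1* 2 do. For *Fgb* 1 lies above that range, at 909.

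Fibrinogen is built of 3 chains from adjacent genes, and the 3 followed a like pattern over the livers. *Fgg*, the gamma chain, was at 944, 971, 1230.3 and 1226 FPKM in controls and at 1019, 695, 574 and 578 in *Usp39*-HKO livers (log2 fold change −0.83, SE 0.22, adjusted p = 0.0206). *Fga*, the alpha chain, was at 925, 1065, 1238 and 1304 in controls and at 1152, 763, 698 and 674 in *Usp39*-HKO livers (−0.68, SE 0.22, adjusted p = 0.0425). *Fgb*, the beta chain, was at 674, 786, 877 and 873 in controls and at 909, 530.4, 574 and 515 in *Usp39*-HKO livers (−0.56, SE 0.22, adjusted p = 0.0883). For all 3, *Usp39*-HKO mice 2 to 4 were below each control while *Usp39*-HKO mouse 1 was not, and without that mouse *Fgb* was called lower (−0.81, adjusted p = 0.00298). The call of *Fga* was lost without any 1 of the 4 controls or *Usp39*-HKO mice 2, 3 and 4 (adjusted p between 0.0534 and 0.116), and that of *Fgg* without control mouse 3, control mouse 4 or *Usp39*-HKO mouse 3 (adjusted p between 0.0587 and 0.0644). The log2 ratios of *Fga* and *Fgb* to *Fgg* differed by 0.15 and 0.26 (exact permutation p = 0.0571 each).

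*F13b*, the carrier subunit of the fibrin-crosslinking factor XIII, fell from 104, 104, 118 and 111 FPKM to 76.4, 103, 84.2 and 93.4 (log2 fold change −0.53, SE 0.11, adjusted p = 0.00632). The groups did not overlap, though *Usp39*-HKO mouse 2 came near the lowest controls, and the call was lost without TMM scaling (−0.29, adjusted p = 0.0797). *F13a1*, its catalytic subunit, known from macrophages and megakaryocytes, was at 0.057 to 0.266 FPKM over the 8 livers and was not tested.

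Of the 8 coagulation proteases and cofactors, 6 fell and none rose. *F7*, the partner of tissue factor, was at 48.1, 53.2, 56.0 and 60.8 FPKM in controls and at 37.1, 23.2, 24.0 and 20.2 in *Usp39*-HKO livers (log2 fold change −1.28, SE 0.20, adjusted p = 0.00173). *F11*, which activates factor IX, was at 32.9, 22.9, 33.7 and 38.5 in controls and at 21.2, 21.0, 15.0 and 20.3 in *Usp39*-HKO livers (−0.95, SE 0.16, adjusted p = 0.00291). *F9*, the gene of hemophilia B, was at 112, 85.7, 125 and 122 in controls and at 78.3, 84.6, 69.0 and 63.8 in *Usp39*-HKO livers (−0.81, SE 0.16, adjusted p = 0.00449). None of the 3 overlapped between the groups; for *F11* and *F9* control mouse 2 was the control nearest to the *Usp39*-HKO livers.

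*F10*, where the 2 branches of coagulation meet, was lower in all 4 *Usp39*-HKO livers, with means of 158 ± 8.21 and 122 ± 14.9 FPKM (SD, n = 4; log2 fold change −0.59, adjusted p = 0.0109). *F2*, prothrombin, was at 334, 406, 336 and 366 FPKM in controls and at 344, 245, 277 and 210.3 in *Usp39*-HKO livers (−0.64, SE 0.19, adjusted p = 0.0296). *F5*, the cofactor of factor X, ranged from 113 to 151 in controls and from 91.2 to 136 in *Usp39*-HKO livers (−0.56, adjusted p = 0.0189). Both overlapped in 1 *Usp39*-HKO liver, mouse 1 for *F2* and mouse 2 for *F5*. The call of *F2* was lost without any 1 of the 4 controls or *Usp39*-HKO mice 2, 3 and 4 (adjusted p between 0.0542 and 0.0692), and that of *F5* without control mice 1, 3 or 4 or *Usp39*-HKO mouse 3 (adjusted p between 0.0527 and 0.0611). *F12*, factor XII of the contact pathway, was not called (−0.48, adjusted p = 0.102) except without *Usp39*-HKO mouse 1 (−0.62, adjusted p = 0.0351). *F3*, tissue factor, was at 2.37 to 3.13 FPKM in controls and at 3.32 to 5.55 in *Usp39*-HKO livers; the groups did not overlap, but the change was not called relative to the median gene (0.44, SE 0.19, adjusted p = 0.127).

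In the contact system, *Klkb1*, which encodes plasma prekallikrein, had the largest fall of all 49 members tested. It was at 35.7, 33.9, 33.8 and 29.8 FPKM in controls and at 10.7, 16.8, 15.6 and 12.1 in *Usp39*-HKO livers (log2 fold change −1.51, SE 0.15, adjusted p = 0.000304). The gap between the groups was wider than the spread within either, and the log2 fold change stayed between −1.62 and −1.40 with any 1 liver left out. The kininogens, from which kallikrein releases bradykinin, were not called: *Kng1* had means of 634 ± 55.1 and 583 ± 72.5 FPKM (SD, n = 4; −0.35, adjusted p = 0.129) and *Kng2* 119 ± 16.1 and 137 ± 13.7 (−0.03, adjusted p = 0.91). Without *Usp39*-HKO mouse 1, *Kng1* was called lower (−0.45, adjusted p = 0.0315). *Klkb1* shares 43.2% of its exon length with the read-through gene *Gm45753*, counted at most 1 time in a liver, and *Kng1* and *Kng2* share 12.4% and 17.9% of their transcripts with each other. The treatment of such shared reads is not known, so the levels of *Klkb1*, *Kng1* and *Kng2* are uncertain too. If reads on exons shared with *Gm45753* were dropped, *Klkb1* is counted too low.

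The anticoagulants were divided. *Proz*, cofactor of the inhibitor of factor Xa, fell from 57.7, 55.7, 59.9 and 72.1 FPKM to 32.3, 46.4, 37.8 and 33.2 (log2 fold change −0.94, SE 0.14, adjusted p = 0.00155). *Proc*, protein C, which inactivates factors Va and VIIIa, fell from 165, 197, 172 and 207 to 152, 115, 146 and 104 (−0.74, SE 0.17, adjusted p = 0.00968). In both genes each *Usp39*-HKO liver was below each control. *Serpind1*, heparin cofactor II, fell by 0.52 on the log2 scale with overlapping groups (adjusted p = 0.0137), a call lost without control mouse 3 (−0.46, adjusted p = 0.0528). *Serpinc1*, antithrombin, was at 175, 195, 177 and 189.9 FPKM in controls and at 185, 165, 181 and 159 in *Usp39*-HKO livers (−0.32, SE 0.13, adjusted p = 0.105). It overlapped in 2 *Usp39*-HKO livers, and 34.4% of its exon length lies opposite *Zbtb37*, so that its level carries the limit given for *Masp2*. *Pros1*, protein S, was not called either (−0.39, adjusted p = 0.053).

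*Thbd*, thrombomodulin, the endothelial receptor that turns thrombin toward protein C, went the other way. It was at 2.05, 3.71, 1.94 and 1.83 FPKM in controls and at 4.73, 7.69, 7.57 and 8.42 in *Usp39*-HKO livers (log2 fold change 1.33, SE 0.23, adjusted p = 0.00296). The groups did not overlap. *Tfpi*, the tissue factor pathway inhibitor, had means of 2.65 ± 0.131 and 3.67 ± 0.891 FPKM (SD, n = 4; 0.23, adjusted p = 0.301).

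Plasminogen and its inhibitors fell. *Plg*, plasminogen, was at 502, 539.8, 546 and 554 FPKM in controls and at 423, 279, 290.1 and 271 in *Usp39*-HKO livers (log2 fold change −0.98, SE 0.18, adjusted p = 0.00401). *Serpinf2*, the main plasmin inhibitor, fell from 339, 287, 379 and 400.2 to 223, 256, 234 and 225 (−0.81, SE 0.13, adjusted p = 0.00229). Neither overlapped between the groups, and *Plg* was highest in mouse 1 among *Usp39*-HKO livers. Of the exon length of *Plg*, 11.3% lies opposite *Slc22a3*, so that its level carries the limit given for *Masp2*. *Cpb2*, a carboxypeptidase that protects fibrin from lysis, fell by 0.63 on the log2 scale (adjusted p = 0.0167), which was lost without control mouse 3 or 4 (adjusted p = 0.0508 and 0.0514).

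*Plaur*, the urokinase receptor, was at 0.583, 0.540, 0.267 and 0.440 FPKM in controls and at 1.02, 1.27, 1.44 and 2.90 in *Usp39*-HKO livers (log2 fold change 1.58, SE 0.35). It was the only member tested with controls under the minimum of 0.5 FPKM (2 of 4). Since it passed the filter only through its *Usp39*-HKO values, where it is high, no p is given for it. It stays in the count of 7 higher members with that limit. *Plau*, urokinase, was not called (0.59, adjusted p = 0.0948) except without *Usp39*-HKO mouse 1 (0.74, adjusted p = 0.0354). *Plat*, the tissue-type activator, missed the filter because *Usp39*-HKO mouse 1 was under the minimum: it was at 0.192, 0.259, 0.131 and 0.0769 FPKM in controls and at 0.462, 1.35, 1.31 and 3.58 in *Usp39*-HKO livers (exact permutation p = 0.0286, two-sided). With no such filter, it had a log2 fold change of 3.01 (SE 0.53, adjusted p = 0.00314 over 19564 genes), and *F13a1* one of 0.69 (adjusted p = 0.258).

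Across all roles, the deposited FPKM gave no overlap between the groups for 27 of the 49 members tested. In 20 of them each *Usp39*-HKO liver was below each control, 40.8% of the members tested against 4.81% of all genes tested. In the other 7 each was above, where 23.9% of all genes tested were above on this scale.

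The *Usp39*-HKO livers were not alike. Over the 26 lower members, the median log2 ratio of FPKM + 1 to the control mean was −0.43, −0.47, −0.55 and −0.80 in *Usp39*-HKO mice 1 to 4. Mouse 4 was the lowest of its group for 17 of the 26 and mouse 1 the highest for 13, and mouse 1 lay within the range of the controls for 5. Over the 7 higher members the medians were 0.76, 0.77, 1.04 and 1.42, and mouse 4 was the highest for 6. Without *Usp39*-HKO mouse 1, 29 members were lower and 7 higher, beside 11.6% and 12.9% of all genes tested. Without control mouse 3, where fewest were called, 19 were lower and 6 higher, beside 6.62% and 6.85% of all genes.

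**Figure D4:**
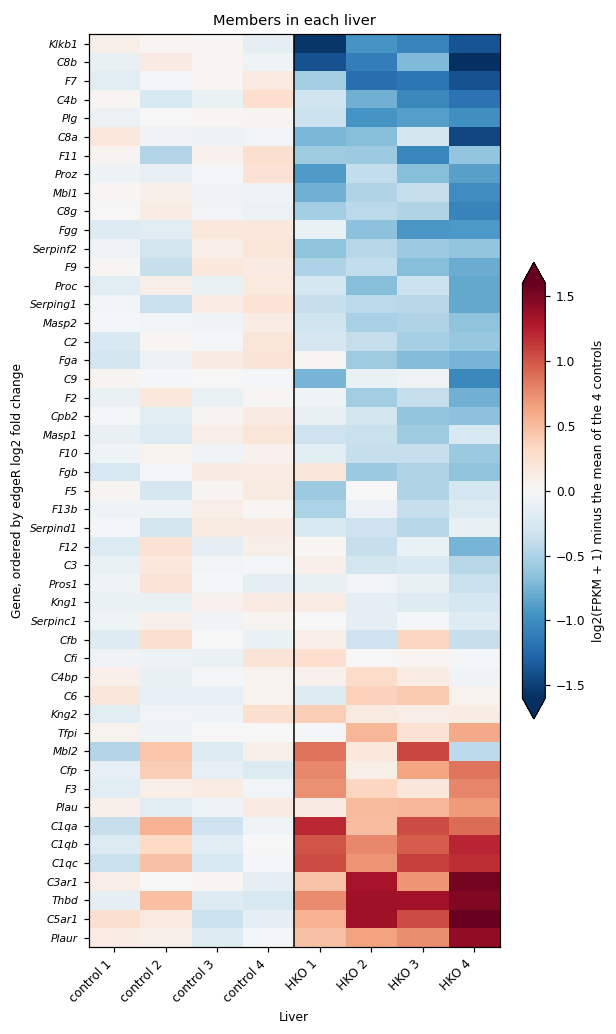
Log2(FPKM + 1) of the 49 members tested (rows, ordered by fold change) in each of the 8 livers (columns), as the difference from the mean of the 4 controls, blue where lower and red where higher. The blue block deepens toward *Usp39*-HKO mouse 4, whose median over the 26 lower members was −0.80, and is palest in mouse 1, at −0.43.

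In whole liver, fewer cells of a type and less RNA per cell cannot be told apart. The members known from macrophages were set beside macrophage markers. The FPKM of the 12 macrophage markers summed to between 351 and 470.2 in controls and to between 635 and 986 in *Usp39*-HKO livers, and the mean log2(FPKM + 1) of the 11 tested was higher by 0.75. The mean of the 11 includes *Ccr2*, which passed the filter only through its *Usp39*-HKO values. Relative to that mean, *C1qa*, *C1qb*, *C1qc*, *Cfp*, *C3ar1*, *C5ar1* and *Plaur* all overlapped between the groups, with differences between −0.14 for *Cfp* and 0.40 for *C5ar1*. The added 1 shrinks changes of genes near or below 1 FPKM. *C3ar1*, *C5ar1* and *Plaur* had control means of 1.56, 1.02 and 0.457 FPKM and edgeR log2 fold changes of 1.23, 1.55 and 1.58. Their overlap on this scale cannot show whether they rose more than the markers. The mean of the 9 endothelial markers differed by 0.08, over genes that went both ways: in FPKM each *Usp39*-HKO liver was above each control for *Pecam1*, *Cdh5* and *Vwf* (log2 fold changes 0.11, 0.09 and 0.45, none called) and below for *Lyve1* (called lower, adjusted p = 0.016). Relative to that mean, *Thbd* was higher by 1.19, with each *Usp39*-HKO liver above each control. The mean of the 8 hepatocyte markers was lower by 0.22. Relative to it, 10 of the 26 lower members were below each control in each *Usp39*-HKO liver (*Masp2*, *Mbl1*, *C4b*, *C8a*, *C8b*, *C8g*, *F7*, *Klkb1*, *Proc* and *Plg*), and the other 16 overlapped. The 26 were picked as lower from these same values, and the share of all genes on this scale was not taken. The count of 10 is thus a description only. The part of cell composition in these results was not tested further.

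**Figure D5:**
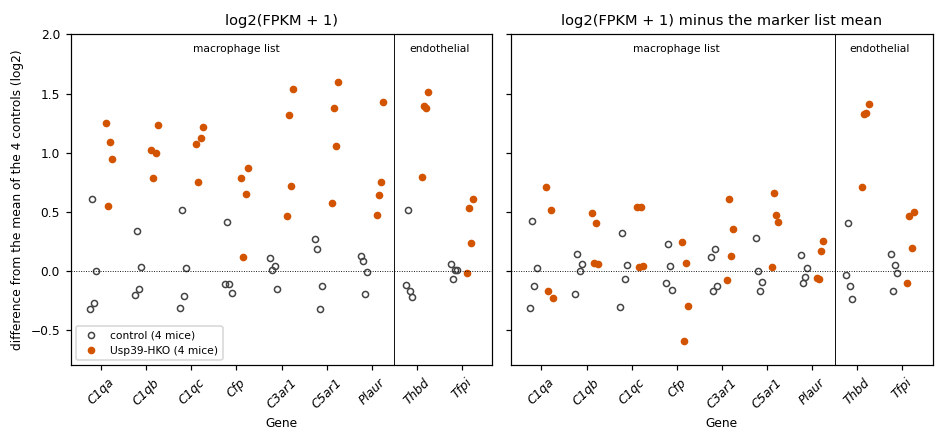
Difference from the control mean (y axis, log2) of 7 members known from macrophages and 2 known from endothelium (x axis) in each liver, open circles for controls and filled circles for *Usp39*-HKO, for log2(FPKM + 1) on the left and for the same minus the mean of the macrophage or endothelial marker list on the right. On the right the groups overlap for the 7 macrophage members and for *Tfpi*, while *Thbd* stays higher by 1.19. The added 1 shrinks changes of members near 1 FPKM, such as *C3ar1*, *C5ar1* and *Plaur*.

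A wider list of 80 other genes of complement, coagulation and their receptors held 62 tested genes, of which 23 were lower (37.1%) and 8 higher (12.9%), with a median log2 fold change of −0.23. Of all genes tested, 11.6% were lower and 10.9% higher, so the share of higher genes was near that of all genes. The list was not split by abundance, and 29.5% of genes with a mean FPKM of at least 100 were lower. The largest falls were those of *Serpina1e*, an alpha-1-antitrypsin paralog (−2.96, SE 0.63, adjusted p = 0.00766), *C4a* (−1.82, SE 0.33, adjusted p = 0.00353) and *Crp*, C-reactive protein (−1.17, SE 0.20, adjusted p = 0.00291). *Serpina1e* went from 1914, 1133, 1629.9 and 1706 FPKM in controls to 89.5, 193, 615 and 54.9, though its reads may be split with near-identical paralogs. *C4a*, at a control mean of 2.74 FPKM, shares transcript sequence with the far more abundant *C4b* (299.9), so its level is uncertain as well. Among the 8 higher genes, *Anxa2*, a surface receptor for plasminogen and its activator, rose by 1.77 (SE 0.29, adjusted p = 0.00244). *F2rl1*, a protease-activated receptor, was at 0.318, 0.110, 0.170 and 0.0700 FPKM in controls and at 0.601, 1.54, 1.30 and 3.23 in *Usp39*-HKO livers, and *Itgax*, a chain of complement receptor 4, at 0.408, 0.693, 0.339 and 0.440 in controls and at 0.643, 1.65, 1.51 and 1.74. Both are among the 8 and had the largest fitted rises besides *Anxa2* (3.04 and 1.30), but they passed the filter only through the *Usp39*-HKO group, where they are high, so no p is given for them.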

How the data were processed

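Liver RNA of 8 mice (4 per genotype, 1 library each) was sequenced from a kit that is not described as keeping strand. Per the study's methods and the submitters' processing notes, the authors trimmed reads (Trim Galore 0.6.1), aligned them to mm10 (the same assembly as GRCm38) with HISAT2 and counted them per gene with featureCounts; strand setting, annotation release and the treatment of reads shared by genes are not given in the sources used here. The authors deposited raw counts per gene and mouse, the exon length of each gene, which equals that of GENCODE vM21 for all 52 members, and FPKM, which the counts, lengths and totals gave back within a relative deviation of 2.0e-07. From their DESeq2 comparison they also deposited a mean normalized signal, a log2 fold change, its standard error and statistic as scores, and p-values with adjusted p-values; these columns hold the authors' findings and were not used. The table's 55699 entries include 314 repeated ones for 55385 genes, read once.

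The 14340 genes that reached 0.5 FPKM in 4 or more livers were tested with edgeR 4.0.16 (R 4.3.3; quasi-likelihood, TMM factors between 0.911 and 0.940 for control and between 1.01 and 1.19 for *Usp39*-HKO libraries, no covariate), with Benjamini-Hochberg adjustment over all of them. Standard errors are the log2 fold change divided by the root of its F statistic. FPKM of single genes and log2 ratios were compared with two-sided exact permutation tests over 70 assignments, whose smallest p is 0.0286. The scripts were first tested on simulated data. Mice of a group differed beyond sampling noise (chi-square of 6.40 to 32.9 for each degree of freedom), so that errors are those between mice. The labels name no batch and no shared replicate numbers; mice were numbered within a group. Exon overlap was taken from GENCODE vM21, shared sequence from blastn 2.17.0+ (at least 150 bases at 97% identity) and promoters from RefSeq on GRCm38.p6.

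The members and lists were chosen with earlier results of these data known, so no p is given for a list. Every member is named or counted; the values of all 8 livers are given for *C3*, *Fga*, *Fgb*, *Fgg*, *F2*, *Plg*, *Serpinc1*, *C1qa*, *C1qb*, *C1qc*, *F7* and *Cfb* and, in each role, for the 3 called members with the largest change. *C9* and *Plat* were added to these, as were the counts of *Cfd*, after their values were seen. Of the other pathway genes the 3 largest rises and falls are named. Alternatives were DESeq2 1.42.0, median-ratio factors, no TMM, 2 other filters, limma 3.58.1 on log2(FPKM + 1), the study's cutoff and leaving out each mouse. Results that need items withheld for evaluation are not reported here.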

Additional observations from a re-analysis of the deposited data

Results flagged for a closer look

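Of 98 groups of 4 livers, 10 held a liver that stood far from the other 3 of its group in FPKM, by a gap that chance alone exceeds in about 1 in 20 groups. In 4 of the 10 it was *Usp39*-HKO mouse 1, which was high for *Plg* (423, against 271 to 290.1 in the other 3), *Fgb* (909, against 515 to 574), *Cfi* (354, against 288 to 299) and *Kng2* (157, against 128 to 132). *Usp39*-HKO mouse 3 was low for *F11* (15.0, against 20.3 to 21.2). Among controls, mouse 2 was high for *Thbd* (3.71, against 1.83 to 2.05) and *Cfp* (43.1, against 28.0 to 29.7), mouse 4 for *Masp2* (60.3, against 53.2 to 54.0) and *Cfi* (339, against 272 to 283), and mouse 1 for *C8a* (171, against 144 to 147).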

How the results depend on the processing

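Of the 33 members called, 24 kept the call under each alternative in which they were tested (*C3ar1*, *C5ar1*, *Thbd* and *Plaur* were not at a mean FPKM of at least 5), 25 with any 1 liver left out, and none changed sign. The 33 include *Plaur*, which passed the filter only through its *Usp39*-HKO values. Without TMM 20 members were lower and 10 higher, with limma on log2(FPKM + 1) 19 and 10, and the median moved from −0.56 to −0.32 and −0.33, while all genes had medians of 0.24 and 0.17. Other pathway genes called higher then numbered 16 and 15 in place of 8, while 24.6% and 21.1% of all genes tested were higher in place of 10.9%. Under these settings 4.85% and 4.44% of all genes tested were lower. Higher members numbered 3 of 41 tested at a mean FPKM of at least 5, which leaves fewer genes to test, beside 11.2% of all 6672 genes tested there. DESeq2 called 7 higher and 30 lower, beside 11.9% and 12.4% of all genes tested. The study's cutoff, on an unadjusted p, called 8 and 27, and the share of all genes was not taken for it. With 1 liver left out, 6 to 8 members were higher and 19 to 29 lower (medians −0.59 to −0.49), and of the other pathway genes 7 to 8 were higher and 18 to 25 lower. In these fits 6.85% to 12.9% of all genes tested were higher and 6.62% to 11.6% lower. Members not called changed sign without TMM, with limma and at a mean FPKM of at least 5: *C6* (0.19, 0.16 and 0.03) and *Kng2* (0.20, 0.20 and 0.05); *C4bp* (0.12 and 0.11) and *Cfi* (0.08 and 0.08) did so under the first pair. *C6* also did without control mouse 1 (0.03), *Usp39*-HKO mouse 1 (0.07) or *Usp39*-HKO mouse 4 (0.03), and *Kng2* without *Usp39*-HKO mouse 4 (0.04) or control mouse 4 (0.06); their values with 1 liver left out ran from −0.16 to 0.07 and from −0.12 to 0.06, and the cause was not tested. No paired analysis was possible because the labels give the groups no shared replicate numbers. With 4 livers a group, an exact permutation p cannot go below 0.0286, and genes near the floor of 3 counts, such as *Cfd*, could not be compared.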

Other observations

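Some other regulators and helpers of the cascades, named after their values were seen, were lower as well. *Hc*, which encodes C5, fell by 0.90 on the log2 scale (edgeR, adjusted p = 0.00414). *Hrg*, histidine-rich glycoprotein, fell by 0.99 (adjusted p = 0.00348). *Ggcx*, the vitamin K-dependent carboxylase that modifies clotting factors, and *Lman1*, the receptor that carries factors V and VIII out of the endoplasmic reticulum, fell by 0.79 and 0.52 (adjusted p = 0.00422 and 0.00681). In FPKM the groups overlapped for *Hc*, *Ggcx* and *Lman1*, and the call of *Lman1* was lost without TMM scaling (−0.28, adjusted p = 0.0805). Other helpers, *Mcfd2*, *Vkorc1* and *Vkorc1l1*, were not called (−0.23, −0.40 and −0.18, adjusted p = 0.129, 0.14 and 0.269). Higher genes included *Vsig4*, a complement receptor of resident liver macrophages (0.73, adjusted p = 0.00949), *Itgb2*, the shared chain of the leukocyte integrins (0.79, adjusted p = 0.00492), and *Fgl2*, a prothrombinase of activated macrophages and endothelium (0.72, adjusted p = 0.00426).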
